A study of Homo sapiens with 8 samples.

Results

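The genes described here are the human m6A readers YTHDF1, YTHDF2, YTHDF3, YTHDC1 and YTHDC2 and the m6A erasers FTO and ALKBH5. They were taken as 7 fixed hg19 gene intervals, and a CLIP peak was counted to a gene when it overlapped the interval on the gene's strand. The 7 genes held 155 of the 210878 peaks listed for replicate 1, 62 of the 65587 listed for replicate 2 and 12 of the 13758 deposited pairs of overlapping peaks. The peaks come from RBM45 CLIP (cross-linking and immunoprecipitation, which marks the RNA stretches a protein touches) in wild-type HEK293T cells, a widely used line derived from human embryonic kidney. The cells had been transduced with a lentivirus carrying FLAG-HA-tagged human RBM45, so the protein mapped is the tagged transgene product, and they received 300 mJ/cm2 of 254 nm ultraviolet light before an anti-HA pull-down. The labels give 8 libraries in 4 groups of 2, of which the 2 wild-type CLIP libraries have peak lists used here. The METTL3 knockout libraries and the size-matched inputs were not analysed here, and neither separate cultures for the replicates nor the clonality of the transduced cells is stated in the labels.

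Methylation of adenosine at its N6 position is the most common internal mark of messenger RNA. The YTH proteins bind methylated adenosine through their YTH domain. The YTHDF proteins act mainly in the cytoplasm, on the stability and translation of marked transcripts, YTHDC1 acts in the nucleus on splicing and export, and YTHDC2 is an RNA helicase best known from germ cells. FTO and ALKBH5 are dioxygenases that remove the methyl group. RBM45 is an RNA-binding protein that the study presents as binding m6A, and the question put to these lists is where it was cross-linked on the transcripts of the genes that read and erase the mark.

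All 7 genes had at least 1 peak in the replicate 1 list and all but YTHDC1 in the replicate 2 list. RBM45 peaks were denser on YTHDF1, ALKBH5 and YTHDF2 than on YTHDF3, YTHDC1 and YTHDC2, and the long FTO gene carried the most peaks of the 7 in number but not per kb. The counting interval of YTHDF2 still overlapped that of YTHDC1 in replicate 1 and that of YTHDF3 in replicate 2. With 1 list per library there is no test between genes, and the intervals given cover counting error only. Each list keeps peaks down to an unadjusted p of 0.005 (per the peak names), the depth behind the lists is unknown, and the level of each gene's RNA was not measured here, so a dense gene cannot be told apart from an abundant transcript.

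YTHDF1, a cytoplasmic reader linked to translation, lies on chromosome 20, 61826781 to 61847586, minus strand, 20.8 kb. It had 18 peaks in replicate 1 and 12 in replicate 2, or 0.865 peaks per kb (exact 95% Poisson interval 0.513 to 1.37) and 0.577 (0.298 to 1.01). This was the highest density of the 7 genes in both lists. ALKBH5, an eraser on chromosome 17, 18086867 to 18113268, plus strand, had 17 peaks in replicate 1 and 12 in replicate 2 over 26.4 kb. That gives 0.644 peaks per kb (0.375 to 1.03) in replicate 1 and 0.455 (0.235 to 0.794) in replicate 2. YTHDF2, the reader that recruits deadenylation and decay factors, on chromosome 1, 29063133 to 29096287, plus strand, had 14 and 9 peaks over 33.2 kb. Its densities of 0.422 per kb (0.231 to 0.708) in replicate 1 and 0.271 (0.124 to 0.515) in replicate 2 were next in order in both lists. The intervals of these 3 genes overlap one another in each list, so their order is not separated beyond counting error.

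FTO, on chromosome 16, 53737875 to 54148379, plus strand, spans 410.5 kb, and its 90 peaks in replicate 1 and 25 in replicate 2 gave 0.219 per kb (0.176 to 0.269) and 0.0609 per kb (0.0394 to 0.0899). It came next in both lists, and its intervals lie below those of YTHDF1 and ALKBH5 in both lists and below that of YTHDF2 in replicate 2 only. YTHDC2, on chromosome 5, 112849391 to 112930984, plus strand, 81.6 kb, had 10 peaks in replicate 1 and 3 in replicate 2, or 0.123 per kb (0.0588 to 0.225) and 0.0368 per kb (0.00758 to 0.107). These intervals overlap those of FTO. YTHDC1, on chromosome 4, 69176105 to 69215824, minus strand, 39.7 kb, had 4 peaks in replicate 1, or 0.101 per kb (0.0274 to 0.258), and none in the replicate 2 list. YTHDF3, which acts together with the other YTHDF proteins, on chromosome 8, 64081112 to 64125346, plus strand, 44.2 kb, had 2 peaks in replicate 1 and 1 in replicate 2, 0.0452 per kb (0.00548 to 0.163) and 0.0226 per kb (0.000572 to 0.126). YTHDF3 was lowest in replicate 1 and YTHDC1 in replicate 2, and the places of these last 2 genes were the only ones that differed between the lists.

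The 3 YTHDF proteins resemble each other closely, but their genes did not carry peaks alike. Averaged over the lists, YTHDF1 had 0.721 ± 0.204 peaks per kb, YTHDF2 0.347 ± 0.107 and YTHDF3 0.0339 ± 0.0160 (SD, n = 2 lists each). The Poisson intervals of YTHDF1 and YTHDF3 do not overlap in either list, and those of YTHDF2 and YTHDF3 do not overlap in replicate 1 but share a narrow range in replicate 2. The erasers differed too, with 0.549 ± 0.134 peaks per kb for ALKBH5 and 0.140 ± 0.112 for FTO. These densities were not scaled for the lengths of the lists, 210878 and 65587 peaks. The means therefore lean on replicate 1, and each SD includes that difference in length. As a yardstick, the genome was divided into fixed 100-kb windows of 1 strand. Windows with at least 1 peak had a median of 0.06 peaks per kb in replicate 1 and 0.03 in replicate 2. YTHDF1 lay above 99.7% of the 20452 such windows in replicate 1 and above 99.8% of 12713 in replicate 2, ALKBH5 above 99.0% and 99.6%, YTHDF2 above 96.8% and 98.1%, and FTO above 87.4% and 76.4%. YTHDC2 lay above 73.5% in replicate 1 and 58.2% in replicate 2, YTHDC1 above 68.4% and, with no peak in replicate 2, 0%, and YTHDF3 above 43.8% and 47.5%. A window can hold stretches outside genes and the gene intervals do not. All intervals but that of FTO are also shorter than a window, YTHDF1 most of all at 20.8 kb. A short dense gene is thus set against longer stretches, and these ranks can overstate the genes' standing.

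**Figure D1:**
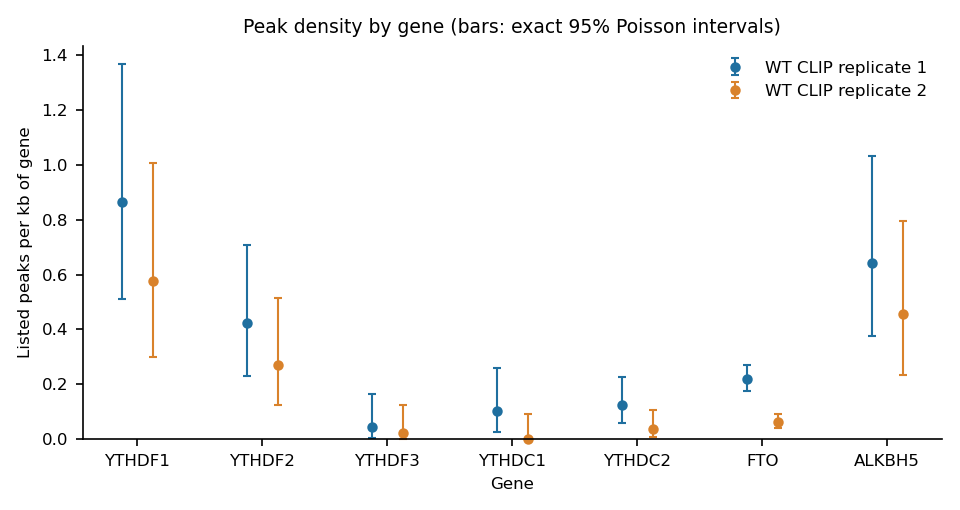
Listed RBM45 CLIP peaks per kb of gene (y axis) for the 7 genes (x axis) in the 2 wild-type CLIP lists, with points for the density and bars for exact 95% Poisson intervals. YTHDF1, ALKBH5 and YTHDF2 stand highest in both lists, and YTHDF3 (0.0452 and 0.0226 per kb) and YTHDC1 (0.101 and 0 per kb) lowest.

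The peaks were placed differently along the genes. On YTHDF2 they gathered near the 5′ end, where 9 of the 14 replicate 1 peaks fell in the first 25% of the interval. In replicate 2 that stretch held 4 of 9 peaks, and the last 25% held another 4. The longest run with gaps of up to 1 kb had 4 peaks over 0.542 kb in replicate 1 (29063905 to 29064446) and 3 peaks over 0.877 kb in replicate 2 (29065280 to 29066156). With gaps of up to 2 kb, 9 replicate 1 peaks ran from 29063905 to 29068984, a span of 5.08 kb whose foremost peak has its midpoint 0.788 kb past the start of the interval. With the same gaps, replicate 2 had 4 peaks from 29064051 to 29066156.

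On YTHDC2 the peaks formed a compact cluster deep in the gene. In replicate 1, 8 of the 10 peaks lay between 112906113 and 112910898, which is 4.79 kb or 5.87% of the gene's length, with midpoints 56.7 to 61.5 kb from the 5′ end, and a gap of 50.1 kb separated them from the other 2. In replicate 2, 2 of the 3 peaks lay inside the same 4.79 kb, and the other, at 112900855 to 112900906, lay 5206 bases from the nearest replicate 1 peak. The longest run with gaps of up to 1 kb had 6 peaks over 2.49 kb in replicate 1 (112906113 to 112908598) and 2 peaks over 0.52 kb in replicate 2 (112906673 to 112907192), all inside the cluster. The cluster was picked out after its positions were seen, so it is given as a description. Close spacing was also common in the lists. Of all listed peaks, 54.96% in replicate 1 and 43.41% in replicate 2 had another peak of their list within 1 kb. In replicate 1 this held for 80% on YTHDC2, 82.4% on ALKBH5, 78.6% on YTHDF2 and 72.2% on YTHDF1. It held for 100% on YTHDF3, 35.6% on FTO and 0% on YTHDC1. Close runs were therefore not particular to YTHDC2.

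YTHDF1 peaks had midpoints from 1.18 to 14.5 kb past its start in replicate 1 and from 3.11 to 16.2 kb in replicate 2. The last 25% of the interval held no peak in replicate 1 and 1 in replicate 2. The longest run with gaps of up to 1 kb had 9 peaks over 4.42 kb (61834102 to 61838525) in replicate 1. In replicate 2 the longest run lay elsewhere, 4 peaks over 1.54 kb from 61841593 to 61843128. ALKBH5 peaks were spread along the gene. Its longest runs with gaps of up to 1 kb had 4 replicate 1 peaks over 2.05 kb in mid-gene (18100623 to 18102667) and 4 replicate 2 peaks over 0.693 kb near the 5′ end (18088096 to 18088788).

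FTO peaks ran along the whole gene. Replicate 1 had 25, 15, 20 and 30 peaks in its successive 25% stretches from the 5′ end, and replicate 2 had 6, 6, 6 and 7. The median spacing was 2.91 kb in replicate 1 and 8.24 kb in replicate 2, against 0.795 and 0.430 kb on YTHDF1. With gaps of up to 1 kb, the longest FTO run of replicate 1 had 5 peaks over 2.86 kb near the 3′ end (54134198 to 54137058) and lay 2120 bases from the nearest replicate 2 peak, while replicate 2 had at most 2 peaks together (53836001 to 53836349). With gaps of up to 2 kb the longest replicate 1 run lay near the 5′ end instead, 6 peaks over 4.88 kb (53756451 to 53761332). On YTHDC1 the 4 replicate 1 peaks lay 0.0775, 3.64, 15.2 and 22.5 kb from the 5′ end. On YTHDF3 the 2 replicate 1 peaks formed a run of 0.329 kb (64110542 to 64110870), 29.4 and 29.7 kb from the 5′ end, while the replicate 2 peak lay at 14.1 kb. Exons, introns and untranslated regions were not assigned, because no hg19 annotation was used here, and for the same reason no peak sequence is printed.

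**Figure D2:**
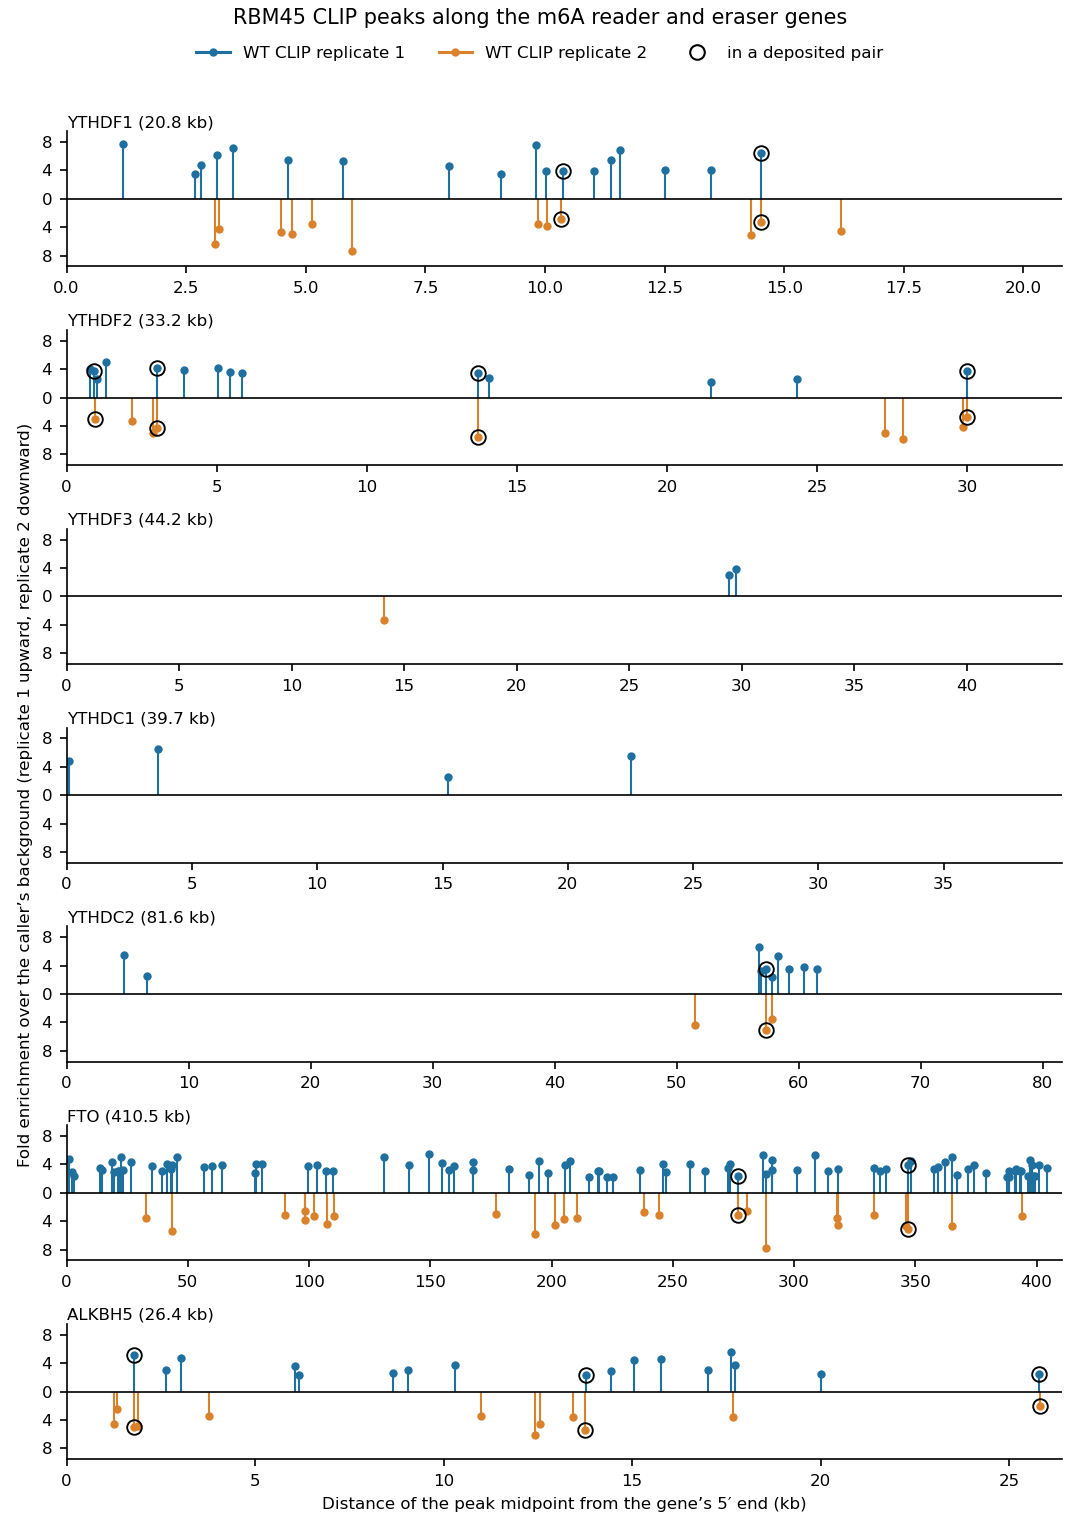
Position and strength of every listed peak on the 7 genes. The x axis is the distance of the peak midpoint from the gene's 5′ end in kb, the y axis is the fold enrichment over the caller's background (replicate 1 upward, replicate 2 downward), and black rings mark peaks in a deposited pair. The YTHDC2 cluster at 56.7 to 61.5 kb, the 5′ peaks of YTHDF2 and the spread over the whole of FTO can be seen, and YTHDF3 and YTHDC1 carry no ring.

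The lists hold no peak on the opposite strand inside any of the 7 intervals. In the 20 kb on either side, 6 of the genes had no peak of either strand in either list. The exception was ALKBH5, with 7 replicate 1 peaks and 1 replicate 2 peak on its own strand past its 3′ end. Neighbouring genes were not assigned, so these peaks may belong to another gene and are not counted to ALKBH5. Each peak was repeated in the deposited rows a number of times that was constant within a gene, 8 times on YTHDF3, 3 times on YTHDF2, 2 times on YTHDC1 and once on the other 4 genes. How the authors set the strand and the repeats is not stated by the labels or the files, so the empty opposite strand is a property of the lists and is not a measure of how strand-specific the binding was.

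Peak strength was read against the peak's own list, and the folds of paired peaks are listed side by side without a comparison, because the caller's fold enrichment depends on each library's background. YTHDF1 peaks were strong for their lists. In replicate 1 their fold enrichment ran from 3.50 to 7.76 with a median of 5.06, against a median of 3.12 over the whole list. In replicate 2 it ran from 2.82 to 7.32 with a median of 4.38, against 3.81 over the whole list. Of the 18 YTHDF1 peaks in replicate 1, 9 exceeded 5-fold, which is 50% (exact 95% binomial interval 26.0 to 74.0), where 9.16% of all listed peaks did. In replicate 2, 4 of 12 did, 33.3% (9.92 to 65.1), where 18.0% of all listed peaks did, so the difference from the list was outside the counting interval in replicate 1 only.

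YTHDF1's highest fold in replicate 1, 7.76 at 61846391 to 61846422, 1.18 kb from the 5′ end, was exceeded by 1.02% of the list, but the nearest replicate 2 peak was 1900 bases away. Its second, 7.63 at 61837696 to 61837839, was 144 bases wide and contained a 66-base replicate 2 peak of 3.48-fold. The highest in replicate 2, 7.32 at 61841593 to 61841639, lay 161 bases from the nearest replicate 1 peak. YTHDC1 also had a high median in replicate 1, 5.21 over 4 peaks that ran from 2.52 to 6.49-fold, but none of them had a counterpart in replicate 2. The strongest, at 69212166 to 69212211, lay 3.64 kb from the 5′ end.

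By fold, the other genes sat closer to their lists. By the caller's −log10 p, YTHDF2 had medians of 6.46 and 8.10, where the whole lists had 3.70 and 4.24. YTHDF1 had 7.49 and 5.97, so by that measure YTHDF2 stood higher in replicate 2. The values that follow are folds. YTHDF2 had medians of 3.70 in replicate 1 and 4.27 in replicate 2, with highest peaks of 5.05 (29064417 to 29064446) and 5.85-fold (29090962 to 29090995), neither of them matched. YTHDC2 had medians of 3.51 and 4.31, and its highest replicate 1 peak, 6.64-fold at 112906113 to 112906148, opened the cluster. ALKBH5 had medians of 3.10 and 4.08, with highest peaks of 5.52-fold (18104463 to 18104510) in replicate 1 and 6.095-fold (18099276 to 18099325) in replicate 2, neither of them matched. FTO had medians of 3.31 and 3.48, and its highest replicate 1 peak, also 5.52-fold (53887366 to 53887396), lay 27706 bases from the nearest replicate 2 peak. YTHDF3 had single values of 3.05 and 3.80 in replicate 1, on either side of that list's median of 3.12 and with a median of 3.43, and 3.25 in replicate 2, below that list's median of 3.81. FTO had 5 of 90 peaks above 5-fold in replicate 1 and 4 of 25 in replicate 2. Over all 7 genes, 22 of 155 replicate 1 peaks exceeded 5-fold, 14.2% (9.11 to 20.7), and 13 of 62 replicate 2 peaks, 21.0% (11.7 to 33.2). Both intervals include the shares of the whole lists, 9.16% and 18.0%, and YTHDF1 gave 9 of the 22 in replicate 1. In replicate 1 the pooled share joined unlike genes. Of the reader peaks 15 of 48 exceeded 5-fold, 31.25% (18.7 to 46.3), and of the eraser peaks 7 of 107, 6.54% (2.67 to 13.02). The readers were not alike, since YTHDF1 gave 9 of those 15. YTHDF2 had 1 of 14 (7.14%), YTHDF3 0 of 2, YTHDC1 2 of 4 and YTHDC2 3 of 10, and the eraser ALKBH5 had 2 of 17 (11.8%). Without FTO the replicate 1 share was 17 of 65, or 26.2%, with an interval above 9.16%. YTHDF1 gave 9 of these 17 as well, and a share without YTHDF1 was not computed. In replicate 2 readers had 28% (12.1 to 49.4) and erasers 16.2% (6.19 to 32.01), and both intervals include 18.0%.

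**Figure D3:**
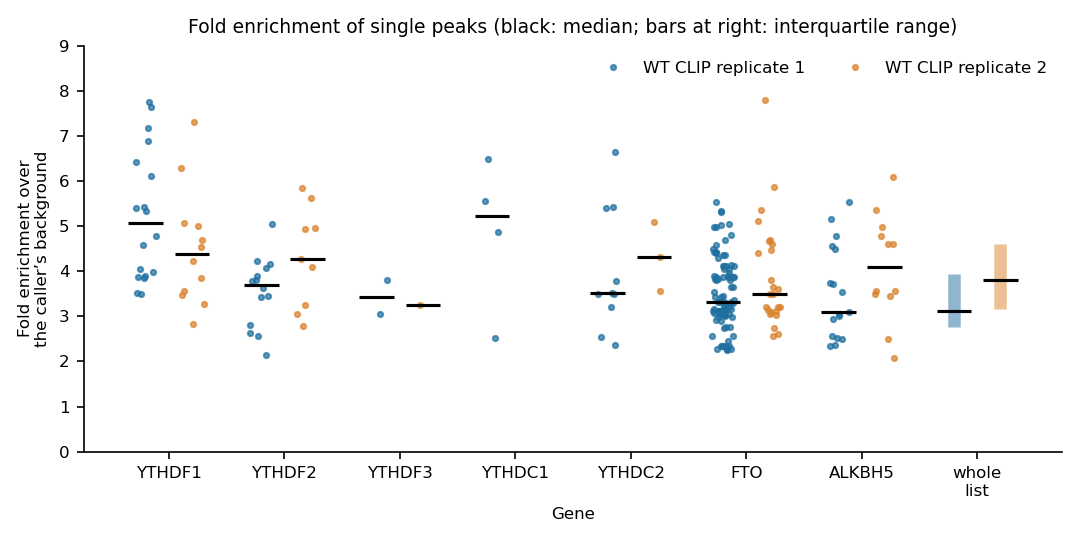
Fold enrichment of each peak (y axis) by gene (x axis), with 1 point per peak, black lines for medians and bars at the right for the interquartile range of each whole list. The YTHDF1 medians (5.06 and 4.38) lie above those of the whole lists (3.12 and 3.81), and the FTO medians (3.31 and 3.48) lie close to them.

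Over the 7 genes together, overlap between the replicates was near that of the lists as a whole, but FTO held 90 of the 155 replicate 1 peaks. Of the 62 replicate 2 peaks, 20 shared at least 1 base with a replicate 1 peak, 32.3% (20.9 to 45.3), where 28.8% of all replicate 2 peaks did. Seen from replicate 1, 19 of 155 peaks overlapped replicate 2, 12.3% (7.54 to 18.5), where 8.88% of the list did. Relaxing the match to 1 kb gave 43 of 62 replicate 2 peaks, or 69.4%, where 68.9% of the list had such a neighbour, and 51 of 155 replicate 1 peaks, or 32.9%, where 30.4% of the list did. The counting intervals of both shares by 1 shared base include the background. FTO, with 6 of 90 replicate 1 peaks matched (6.67%), weighs on the replicate 1 share. Without FTO, 13 of 65 replicate 1 peaks overlapped replicate 2, 20% (11.1 to 31.8), an interval above 8.88%. From replicate 2 it was 14 of 37, 37.8% (22.5 to 55.2), an interval that includes 28.8%. Within 1 kb the shares without FTO were 58.5% in replicate 1 and 81.1% in replicate 2.

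By gene, 6 of 12 YTHDF1 peaks of replicate 2 overlapped replicate 1, and 4 of 9 on YTHDF2, 3 of 12 on ALKBH5, 6 of 25 on FTO and 1 of 3 on YTHDC2. On YTHDF3 the single replicate 2 peak was not matched, and its nearest replicate 1 peak was 15307 bases away. The unmatched replicate 2 peaks of YTHDF1 lay close by, a median of 166.5 bases from a replicate 1 peak over 6 peaks, whereas on FTO the median distance was 1472 bases over 19 peaks. Replicate 1 peaks were themselves more closely spaced on YTHDF1, a median of 0.795 kb against 2.91 kb on FTO. These distances therefore do not compare the agreement of the replicates between the genes. On ALKBH5, an unmatched replicate 2 peak at 18104515 to 18104574 lay in the space between replicate 1 peaks at 18104463 to 18104510 and 18104575 to 18104605, touching the second without sharing a base.

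Replicate 1 listed more peaks than replicate 2 on every gene. The 7 genes had 2.5 replicate 1 peaks for each replicate 2 peak, against 3.22 in the rest of the lists, and 28.6% of their peaks from both lists came from replicate 2 (22.7 to 35.1), against 23.7% in the rest. The ratio was 1.5 on YTHDF1, 1.56 on YTHDF2 and 1.42 on ALKBH5, and 3.6 on FTO and 3.33 on YTHDC2. The exact interval of every gene's share includes 23.7%, so no single gene stands apart from the rest at these numbers. The pooled share leans on FTO, with 90 replicate 1 and 25 replicate 2 peaks. The other genes together had 65 and 37, and an interval for their joint share was not computed.

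**Figure D4:**
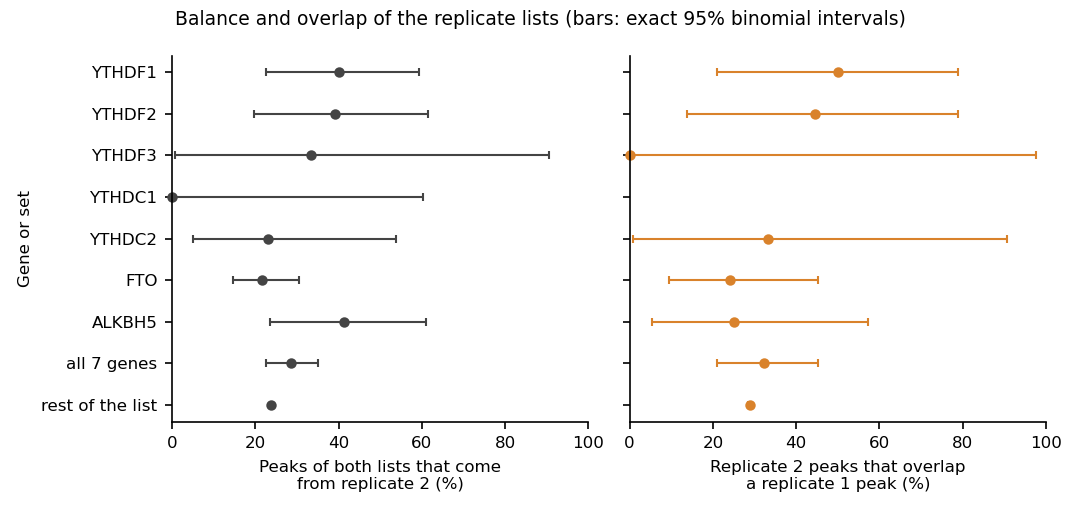
Left, the percentage of each gene's peaks in both lists that come from replicate 2; right, the percentage of replicate 2 peaks that share at least 1 base with a replicate 1 peak (both x axes), by gene and for all 7 genes and the rest of the list (y axis), with exact 95% binomial intervals as bars. The bars of the 7 genes together (22.7 to 35.1 and 20.9 to 45.3) span the values of the rest of the list, 23.7 and 28.8, and YTHDC1 has no point on the right because replicate 2 lists no peak there.

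The deposited list of shared peaks, whose pairs all share at least 50% of the replicate 1 peak, held 12 pairs on 5 of the genes. YTHDF2 had 4, ALKBH5 3, YTHDF1 and FTO 2 each and YTHDC2 1, while YTHDF3 and YTHDC1 had none. The 12 pairs took up 12 of the 62 replicate 2 peaks, or 19.4%, where 20.9% of the replicate 2 list was paired, and 12 of 155 replicate 1 peaks, where 6.52% of that list was. Of the 20 overlaps by at least 1 base, 8 were left out of the deposited pairs, 4 on YTHDF1 and 4 on FTO, and in each the shared bases made up less than 50% of the replicate 1 peak.

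On YTHDF2 all 4 overlaps were deposited pairs, and 3 of them placed the peaks within 1 base of each other. The replicate 1 peak at 29066126 to 29066156, 3.01 kb from the 5′ end, had a fold of 4.22 and its replicate 2 partner 4.27. The pair at 29076809 to 29076838 had folds of 3.45 and 5.61, and the pair at 29093110 to 29093139, 3.16 kb from the 3′ end, had 3.77 and 2.78. The pair nearest the 5′ end, with replicate 1 peak 29064022 to 29064082, had 3.81 and 3.05 and midpoints 27 bases apart. YTHDF2 thus had pairs both near its start and near its end.

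ALKBH5 had the pair with the highest lower fold of the 12, at 18088616 to 18088698 in replicate 1, 1.79 kb from the 5′ end, with 5.15 in replicate 1 and 4.97 in replicate 2 and 64 shared bases. Among all deposited pairs, 14.6% had a higher lower fold. A second pair, at 18100623 to 18100673, had 2.33 and 5.35, and the third lay 0.605 kb from the 3′ end, at 18112645 to 18112684, with 2.497 and 2.07. That last pair had −log10 p values of 7.88 and 7.16 although its folds were low.

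On YTHDF1 the pair at 61833049 to 61833087 had folds of 6.41 and 3.28 and the pair at 61837181 to 61837258 had 3.90 and 2.82. A replicate 1 peak that was not paired, 61844401 to 61844490 with 6.10-fold, overlapped 2 replicate 2 peaks at once, of 4.22 and 6.30-fold. The YTHDC2 pair lay inside the cluster, at 112906671 to 112906700, with 3.52 and 5.10. On FTO the pairs lay at 54014942 to 54014980, with 2.33 and 3.10, and at 54084729 to 54084759, with 3.87 and 5.11, at 277 and 347 kb from the 5′ end. The strongest FTO peak of replicate 2, 7.80-fold at 54026273 to 54026302, overlapped a replicate 1 peak of 2.57-fold by 19 bases and was not a deposited pair.

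No pair on these genes exceeded 5-fold in both lists, where 13.9% of all deposited pairs did. The median lower fold was 3.16 in the 12 pairs and 3.56 in the rest, and with 12 pairs this is a description only.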

How the data were processed

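The authors deposited peak lists for the 2 wild-type CLIP libraries and a list of peak pairs. Peaks were called per library with MACS2 at a p of 0.005, per the file's peak names; the submitters' processing notes list hg19 and, in no given role, deepTools 3.2.1, HOMER 4.11.1, bedtools 2.25.0, MACS2 2.1.1.20160309 and Novoalign 3.09.00. The control that MACS2 was run against is not given in the sources. The deposited values are a score of 10 times the −log10 p, a ratio of each peak to the background of the caller, called fold enrichment here, and the authors' −log10 p, which is not adjusted. Each belongs to a single peak, and they served to rank and describe peaks inside their own list and, set side by side, to describe and rank pairs.

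The count table and its summary have 16 columns (8 each) whose names match no sample label, and they were not used. The planned tests of CLIP against input and of knockout against wild type were therefore not run. Motifs and other genes of the pathway were not analysed, since they need an hg19 genome and annotation.

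Repeated rows (467329 and 148958 rows in all) were collapsed to 1 peak per position and strand. Overlapping peaks shared 1 base or more of 1 strand, and positions are counted from 1. Shares carry exact Clopper-Pearson intervals and densities exact Poisson intervals at 95%, for counting error only; peaks of 1 library are not independent. The members and lists were chosen with earlier results of these data known. All 7 genes are named; within a gene the deposited pairs, the highest fold of each list and the longest run within 1 kb are given by rule, and other peaks, runs with gaps of up to 2 kb and the YTHDC2 cluster were chosen after their values were seen. Overlap counting and gene assignment were tested on simulated peaks. Tools were pandas 2.3.3, scipy 1.17.1, matplotlib 3.10.9 and numpy 2.4.6 under Python 3.11.15.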

Additional observations from a re-analysis of the deposited data

How the results depend on the processing

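The share of all listed peaks that lay in the 7 genes averaged 0.0840% over the lists (SD 0.0149, n = 2). It was 0.0735% to 0.0945% with 1 list left out, 0.0507% with repeated rows kept, 0.112% for peaks above 5-fold, 0.108% in the stronger 50% of each list and 0.0436% without FTO, which holds 115 of the 217 peaks of both lists. Ignoring strand could change no count, because the lists hold no peak on the opposite strand of the 7 genes. Using the peak midpoint changed none. The 32.3% of replicate 2 peaks in the genes that overlapped replicate 1 became 16.1% with 50% of both peaks required (19.6% in the whole list), 19.4% with 50% of the replicate 1 peak (20.9%), 19.4% with replicate 1 cut to its strongest peaks at the size of replicate 2 (18.6%), 7.69% or 1 of 13 for peaks above 5-fold in both lists (19.4%) and 69.4% within 1 kb (68.9%); in each case fewer or more peaks qualify by construction. It was 34.2% in the stronger 50% (33.1% in the whole list), 41.9% within 100 bases (37.4%) and 37.8% without FTO (28.8%). The 12 pairs fell to 0 above 5-fold in both lists. The order of the genes by density kept all 7 places in the stronger 50% and with replicate 2 left out, and 5 places with replicate 1 left out (7 to 5 over both), when YTHDC1 and YTHDF3 changed places. Above 5-fold it kept 5 places, and FTO, at 0.0110 peaks per kb, came after YTHDC1 (0.0252) and YTHDC2 (0.0245). The matches within 100 bases and 1 kb and the values without FTO were added after seeing the data. The alternatives planned for the counts and the motifs were not run. No paired analysis was possible because no column of counts can be tied to a sample. Without depth, a gene with few or no peaks in a list may hold binding below the caller's threshold.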
